A study of Mus musculus with 24 samples.

Results

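Kidneys obstructed for 7 days were compared with kidneys from sham surgery by bulk RNA sequencing, with 4 libraries in each group, which are 8 of the 24 libraries of the series. The members of the comparison are all 14785 genes of the deposited table, each with 1 value per library, and the 8 libraries were chosen by their titles. Unilateral ureteral obstruction (UUO) is the ligation of the ureter of 1 kidney, so that urine can no longer leave it. The UUO7 animals were killed 7 days after this ligation, and the sham animals had sham surgery without it. All were male C57/BL6 mice with no transgene or other treatment named, and their age is given as 8 weeks in the labels and as 8 to 9 weeks at the start in the design text. Per that text, 10 animals were used in each group and 4 of them were sequenced, on a basis that is not given. The labels call the tissue kidney, and the series title calls it cortical. Whether the kidney of a sham animal came from the operated side is not given in the sources used here. A pair of other groups is used at the end for comparison: 2 days of ligation (UUO2), and 7 days of ligation followed by reimplantation of the ureter and 1 week of recovery (R1W), each with 4 animals.

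Obstruction of the ureter raises the pressure in the tubules, slows filtration and injures the tubular epithelium. The nephron begins at the glomerulus, a filter made by podocytes and capillaries, and continues as proximal tubule, thick ascending limb, distal convoluted tubule and collecting duct. The proximal tubule takes back most of the filtered solutes, lives largely on fatty acids and is the main target of injury. Around the tubules lie capillaries, fibroblasts and a few resident macrophages, and in lasting injury the fibroblasts deposit collagen while leukocytes enter the tissue.

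Values are taken here to be FPKM, that is, fragments scaled by the length of the transcript and by the total of the library. The unit is not stated in the sources used here and was inferred from the values. Steps between low values imply a depth of 31630000 to 34860000 fragments for sham and 26780000 to 30000000 for UUO7. A value of this kind is a share of its library, so a fall of a few very abundant genes lifts all others. The share of all FPKM held by the 10 most abundant genes was 23.7% ± 1.06 (SD, n = 4) in sham and 10.6% ± 0.964 in UUO7. The median gene had a log2 fold change of 0.42 for UUO7 over sham. Every comparison was therefore also made after each library was rescaled by the median of its ratios to each gene's geometric mean, which brings the median shift to 0.008. A gene is said to have risen or fallen only where limma, a linear model with moderated errors fitted across all genes, gave a Benjamini-Hochberg adjusted p under 0.05 in the same direction on the deposited and on the rescaled values. Fold changes are on log2(FPKM + 1), which understates the change of genes with low values, and are given on the deposited values unless called rescaled.

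The 4 libraries within a group were alike, with Pearson's r across genes of 0.978 to 0.992 over 12 pairs, against 0.845 to 0.891 over the 16 pairs of a sham and a UUO7 library. 1 sham library, sham 2, stood apart in genes of neighbouring tissues. The summed level of 8 markers of urothelium, the lining of the renal pelvis, was 110.9 FPKM in sham 2, 2.14 to 6.48 in the other sham libraries and 39.91 to 81.01 in UUO7. The sum over 10 adipose markers was 383.9 FPKM in sham 2, 103.3 to 108.7 in the other sham libraries and 170.8 to 229.7 in UUO7. Adipoq, the fat-cell hormone adiponectin, was at 12.5 FPKM in sham 2 and at 0.03, 0 and 0.03 in the other sham libraries. In UUO7 it was at 0.79 in UUO7 3 and 0 elsewhere, and Cfd, another of the 10, had a mean of 3.04. The UUO7 sum thus came from other members of the list. Of the 10 markers 0 rose and 1 fell, or 1 rose and 1 fell without sham 2. The sum over 7 inner medulla markers was 649 FPKM in sham 2, 83.28 to 118.2 in the other sham libraries and 222.1 to 282.5 in UUO7. Values without sham 2 are given beside results that changed when it was left out.

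**Figure D1:**
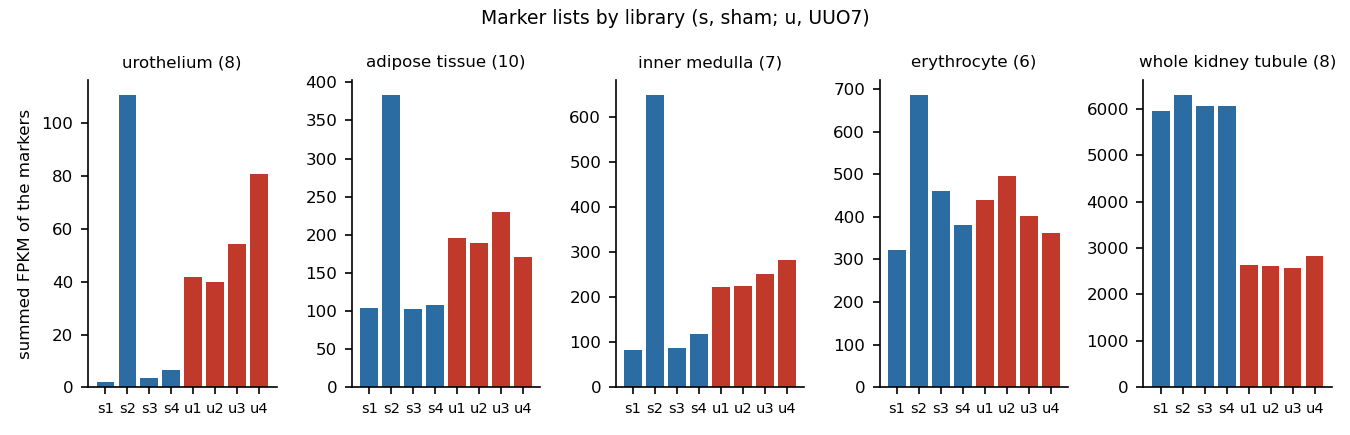
Bars give the summed FPKM (vertical axis, starting at 0) of 5 marker lists in each of the 4 sham libraries (blue, s1 to s4) and the 4 UUO7 libraries (red, u1 to u4), with the number of measured markers in brackets. Sham 2 is the tallest bar for urothelium (110.9), adipose tissue (383.9), inner medulla (649) and erythrocytes (686.5), and the sums over tubule markers separate the groups.

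Tubule markers were present in every library, as the label of kidney requires. The sum over 8 tubule markers, most of them specific to 1 segment and with Slc34a1 and Umod the most abundant, was 5947 to 6301 FPKM in sham and 2569 to 2828 in UUO7. Markers of other tissues were scarce: 1 of 8 skeletal muscle markers, 1 of 7 adrenal cortex markers and 1 of 6 mast cell markers had a row in the table. The summed level of 6 erythrocyte markers was 321.7 to 686.5 FPKM in sham and 362 to 494.8 in UUO7, so these sums overlapped between the groups. In bulk tissue, fewer cells of a type and less RNA per cell cannot be told apart, and this holds for every gene below.

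On the deposited values, 11512 genes (77.9% of all tested) passed the test, 8880 higher and 2632 lower in UUO7. On the rescaled values, 5393 were higher and 5396 lower, a near-even split that the method sets. On both, 5393 genes rose (36.5%) and 2632 fell (17.8%), and these shares are the background against which every list below is read. The table keeps no gene with a mean under 1 FPKM over the 24 libraries. A list member below that level in sham is thus present only because it was higher in other groups, and its rise was in part set by that limit. With a change of at least 1 on the log2 scale on both, 1983 genes rose (13.4%) and 846 fell (5.72%). The rises reached further than the falls: 144 genes rose and 35 fell by at least 3, and 36 rose and 7 fell by at least 4. The authors' deposited table lists 10760 genes at an adjusted p under 0.05 for this comparison, 5231 higher and 5529 lower. Of the 8025 genes that rose or fell here, 7529 had that p and the same direction in the authors' deposited table.

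**Figure D2:**
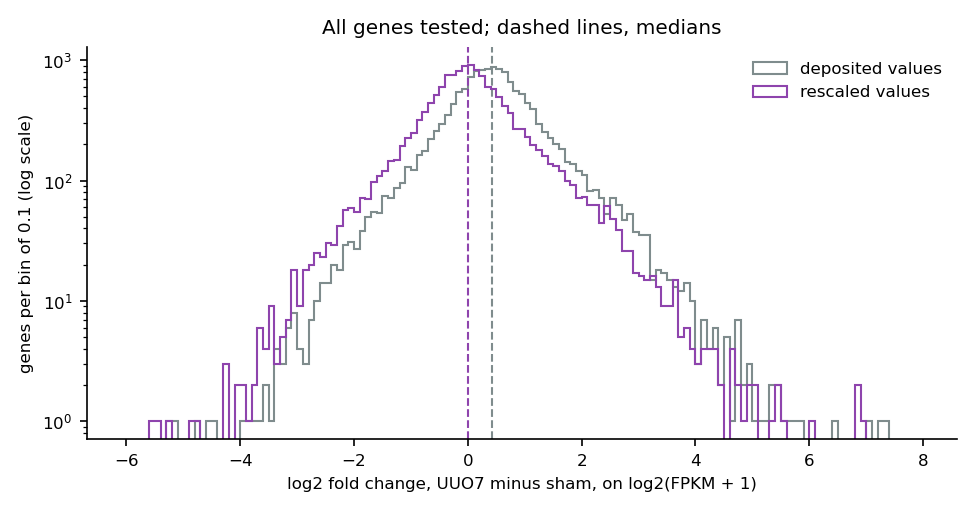
The horizontal axis is the log2 fold change of UUO7 over sham on log2(FPKM + 1), and the vertical axis, on a log scale, is the number of genes per bin of 0.1. The deposited values (grey) have their median at 0.42 and the rescaled values (purple) at 0.008, and the right tail is longer than the left on both.

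The largest rises were in genes of injured tubule, of matrix and of inflammation. Of the 14 named for the greatest rise, 12 had a sham mean under 10 FPKM. Havcr1, which encodes the injury receptor KIM-1 of the proximal tubule (chromosome 11, 46735080 to 46779578, plus strand), was at 1.75, 2.35, 1.49 and 2.06 FPKM in sham and at 508.5, 443.2, 510.1 and 429.1 in UUO7. Its log2 fold change of 7.35 (SE 0.33, limma adjusted p 1.13e-12) was the largest of those 14. Lcn2, the iron-carrier-binding protein lipocalin 2 released by injured tubules (chromosome 2, 32384633 to 32388252, minus strand), was at 2.78, 16.15, 2.15 and 4.64 FPKM in sham and at 888.1, 747.8, 806.8 and 1107 in UUO7. Its highest sham value was in sham 2, and every UUO7 value was above it. Spp1, the secreted phosphoprotein osteopontin (chromosome 5, 104435118 to 104441050, plus strand), was already abundant in sham at 385.2, 718.5, 388.9 and 428.1 FPKM. In UUO7 it reached 15890, 16450, 17540 and 14640 FPKM and stood among the 10 most abundant genes.

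Mmp7, the matrix metalloproteinase matrilysin (chromosome 9, 7692090 to 7699585, plus strand), was listed at 0.07, 0.17, 0 and 0 FPKM in sham and at 48.6, 53.3, 49.2 and 44.8 in UUO7. Krt20, an intermediate filament keratin of simple epithelia (chromosome 11, 99428403 to 99438150, minus strand), was at 0.12, 0.46, 0.08 and 0.02 FPKM in sham and at 35.1, 36.6, 38.2 and 30.4 in UUO7. No sham library had as much as 1 FPKM of either gene, and no UUO7 library had less than 30. The 250 bases before the start of each gene are shown because both were near 0 in sham and their starts matched RefSeq (GRCm38.p6). Capitals in Mmp7 (chr9:7691840-7692089, plus strand) mark a match to the AP-1 motif TGANTCA, whose first base lies 63 bases before the start, and 2 matches to the TATA box TATAAA, 123 and 26 bases before it. This window also holds 2 CCAAT boxes, at 213 and 127, which are not marked. Capitals in Krt20 (chr11:99438154-99438403, minus strand) mark 3 matches to the TEAD motif GGAATG, at 139 and 134 bases before the start, where they overlap, and at 74 on the other strand, and a TATA box at 29.
Mmp7: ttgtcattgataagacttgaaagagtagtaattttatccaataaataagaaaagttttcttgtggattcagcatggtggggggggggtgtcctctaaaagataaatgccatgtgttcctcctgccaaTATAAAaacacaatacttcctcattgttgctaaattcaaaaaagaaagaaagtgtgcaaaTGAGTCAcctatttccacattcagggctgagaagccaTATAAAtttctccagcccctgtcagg
Krt20: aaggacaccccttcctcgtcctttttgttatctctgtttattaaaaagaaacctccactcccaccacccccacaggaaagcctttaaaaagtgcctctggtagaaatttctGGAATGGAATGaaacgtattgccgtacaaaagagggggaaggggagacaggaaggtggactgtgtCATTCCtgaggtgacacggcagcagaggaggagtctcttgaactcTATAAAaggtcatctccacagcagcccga
AP-1 factors are dimers of the Fos, Jun and Atf families, and TEAD factors carry the co-activators YAP and TAZ to DNA. A match is a description of these letters and not evidence that a factor binds there. The promoters printed here and further down were picked after the values were seen.

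Other large rises were in matrix, complement and cell surface genes. Mgp, the matrix Gla protein that holds back calcification (chromosome 6, 136872435 to 136875823, minus strand), had a sham level of 79.5 ± 32.8 FPKM (SD, n = 4) and a UUO7 level of 3442 ± 357, a log2 fold change of 5.49. C3, the central complement protein, went from 3.79 ± 2.48 to 395 ± 21.7 FPKM. Vcam1, an adhesion molecule for leukocytes that injured tubules also carry, went from 1.75 ± 0.205 to 151 ± 18.6 FPKM. Timp1, an inhibitor of metalloproteinases, was at 0.69, 1.82, 0.42 and 0.42 FPKM in sham and at 85.8 to 114 in UUO7. Thy1, a surface protein of fibroblasts and T cells, rose by 5.42 on the log2 scale, Aoc1, which breaks down histamine and polyamines, by 5.40, and Col3a1, a fibrillar collagen, by 5.37. Serpina10, an inhibitor of coagulation proteases, rose by 5.23. In all of these the lowest UUO7 library lay above the highest sham library on both scalings, which the naming rule required.

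**Figure D3:**
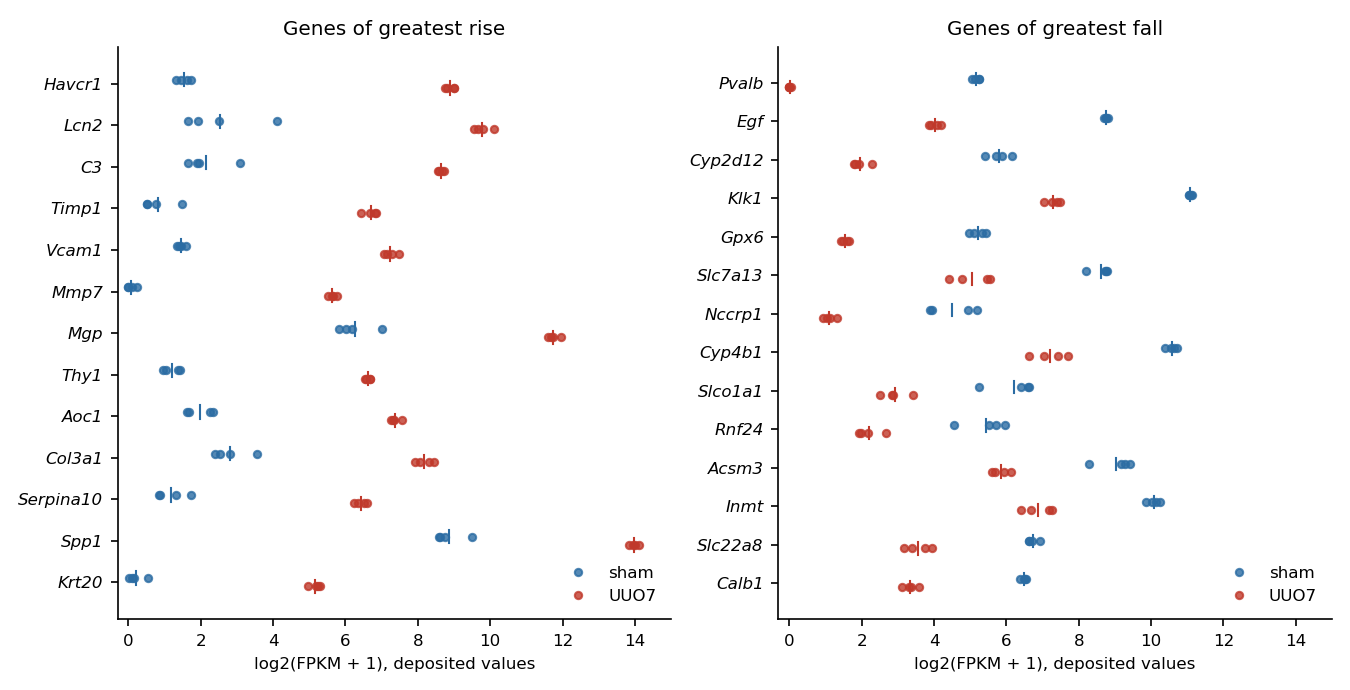
The horizontal axis is log2(FPKM + 1) on the deposited values; each point is 1 library, blue for sham and red for UUO7 (4 each), and the short vertical lines are group means. The left panel shows 13 of the 14 genes of greatest rise and the right panel the 14 of greatest fall by the naming rule; no gene has overlapping groups, which the rule required, and Pvalb reaches 0 in UUO7.

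Among the largest falls were genes of the distal nephron. Pvalb, the calcium buffer parvalbumin of the distal convoluted tubule (chromosome 15, 78191114 to 78206400, minus strand), was at 37.1, 37.3, 33.8 and 32.3 FPKM in sham and was listed at 0.04, 0, 0 and 0 in UUO7. Egf, the growth factor made in the thick ascending limb and distal convoluted tubule (chromosome 3, 129677565 to 129755316, minus strand), was at 433, 416, 446 and 429 FPKM in sham and at 13.5, 16.1, 14.1 and 17.3 in UUO7. Its log2 fold change was -4.74 (SE 0.40, limma adjusted p 1.47e-09). Klk1, tissue kallikrein of the connecting tubule, was at 2099 to 2243 FPKM in sham and at 131 to 179 in UUO7, although the kallikrein genes are near-copies of each other and their reads may be shared. Calb1, the calcium carrier calbindin of the same segments, went from 88.3 ± 4.92 to 9.24 ± 1.35 FPKM. Thus 4 of the 14 greatest falls were in distal genes.

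Transporters and metabolic enzymes were also among the 14. Slc7a13, an aspartate, glutamate and cystine transporter of the last proximal segment, was at 440, 296, 431 and 420 FPKM in sham and at 46.0, 43.6, 20.2 and 26.3 in UUO7. Slc22a8, the organic anion transporter OAT3, was at 98.2 to 122 FPKM in sham and at 8.06 to 14.5 in UUO7. Slco1a1, another organic anion transporter, was lowest among the sham libraries in sham 2 at 36.6 FPKM, with 84.1 to 97.3 in the others, and at 4.73 to 9.80 in UUO7. Cyp4b1, a cytochrome P450 monooxygenase, fell by 3.38 on the log2 scale, Acsm3, a medium-chain acyl-CoA synthetase, by 3.19, and Inmt, which methylates indoleamines, by 3.19. Cyp2d12, a cytochrome P450 of a large family of near-copies whose reads may be shared, went from 55.5 ± 12.2 to 2.94 ± 0.669 FPKM. Gpx6, a glutathione peroxidase, went from 36.2 ± 5.30 to 1.92 ± 0.194 FPKM. The other 2 of the 14, Nccrp1 and Rnf24, fell by 3.38 and 3.24.

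Genes of injured tubule rose almost as a list: 23 of 25 rose, 19 of them by at least 1, and 0 fell, with a rescaled median of 2.41. Clu, the secreted chaperone clusterin, was at 172, 202, 163 and 172 FPKM in sham and at 2342, 2158, 2350 and 2617 in UUO7. Cd44, a hyaluronan receptor of dedifferentiated tubule, went from 0.258 ± 0.112 to 19.1 ± 1.05 FPKM. The simple keratins Krt8 and Krt18 rose by 1.85 and 3.37 on the log2 scale, and Vim, the filament vimentin, by 3.18. Sox9, a transcription factor that is switched on in regenerating tubule, was at 0.13 to 0.24 FPKM in sham and at 4.87 to 6.83 in UUO7. The 2 members that did not rise were Itgb6 and Met: Met, the receptor of hepatocyte growth factor, was at 22.6 ± 1.28 FPKM in sham and 22.0 ± 0.601 in UUO7, and was lower on the rescaled values alone. Krt18 was at 36.5 FPKM in sham 2 and at 8.27 to 12.0 in the other sham libraries, and the list's count without sham 2 was again 23.

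The proximal tubule list moved the other way, with 30 of 31 members lower, 25 of them by at least 1, and a rescaled median of -2.22. Its summed level was 48200 to 63030 FPKM in the sham libraries and 12810 to 20850 in UUO7. A single member held most of this sum in both groups, so the sum does not give the level of the whole list. Slc34a1, the main phosphate transporter of the brush border (chromosome 13, 55398187 to 55415592, plus strand), was at 2819, 2548, 2992 and 2698 FPKM in sham and at 715, 705, 608 and 575 in UUO7. Slc5a2, the glucose transporter SGLT2, went from 309 ± 19.4 to 101 ± 4.40 FPKM. Lrp2, the endocytic receptor megalin, went from 112 ± 13.3 to 21.2 ± 3.36 FPKM, and its partner Cubn, cubilin, fell by 1.87 on the log2 scale. Slc22a6, the organic anion transporter OAT1, was at 285, 252, 274 and 269 FPKM in sham and at 51.6, 51.0, 36.9 and 35.6 in UUO7. Acsm2, a medium-chain acyl-CoA synthetase, was at 2121, 1642, 2204 and 2238 FPKM in sham and at 464, 420, 381 and 338 in UUO7, and shares similar sequence with its neighbours in the Acsm family. Slc6a19, the neutral amino acid transporter, went from 74.5 ± 11.3 to 9.82 ± 2.15 FPKM.

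1 member of the proximal list rose. Slc13a1, the sulfate transporter of the brush border, was at 99.4, 93.0, 97.2 and 93.7 FPKM in sham and at 245, 250, 212 and 209 in UUO7, with a log2 fold change of 1.24 (SE 0.18) and 0.76 after rescaling. The lowest UUO7 library had more than double the highest sham library on the deposited values.

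Among transcription factors of the nephron 15 of 29 fell, 8 by at least 1, and 2 rose. Hnf4a, the nuclear receptor that drives proximal tubule genes (chromosome 2, 163506808 to 163572910, plus strand), was at 197, 168, 201 and 163 FPKM in sham and at 70.4, 69.3, 54.5 and 57.5 in UUO7. Pax2 and Pax8, which mark tubule epithelium from its origin, did not pass on both scalings. Pax2 had a log2 fold change of 0.256 with all libraries and of 0.588 without sham 2 (limma adjusted p 0.0175). Foxj1, the master factor of motile cilia, was 1 of the 2 that rose, from 0.11, 0.30, 0.17 and 0.30 FPKM to 9.30, 7.60, 8.97 and 11.01.

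In the thick ascending limb 14 of 18 genes fell and 2 rose. Slc12a1, the sodium, potassium and chloride transporter NKCC2, was at 210, 243, 207 and 282 FPKM in sham and at 37.8, 51.2, 46.8 and 51.3 in UUO7. Umod, which encodes uromodulin, the most abundant protein of normal urine, fell by only 0.58 on the log2 scale, from 1682 ± 91.6 to 1133 ± 144 FPKM. Cldn14, a claudin that blocks calcium reabsorption in this segment, went the opposite way, from 0.03 to 0.08 FPKM in sham to 2.51 to 3.56 in UUO7. In the distal convoluted and connecting tubule 13 of 19 genes fell and 1 rose. Slc12a3, the thiazide-sensitive sodium chloride transporter, went from 425 ± 37.0 to 146 ± 23.4 FPKM. The member that rose was Trpv5, the apical calcium channel, at 3.70, 3.78, 4.38 and 3.11 FPKM in sham and 14.0, 15.3, 8.27 and 12.5 in UUO7.

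In the collecting duct, among principal cell genes 6 of 13 fell and 0 rose with all libraries, and 4 fell and 1 rose without sham 2. Aqp2, the vasopressin-regulated water channel, was at 159, 529, 143 and 216 FPKM in sham and at 77.2, 64.0, 113 and 87.0 in UUO7, so its sham mean was pulled up by sham 2 while the groups still did not overlap. Aqp3, the basolateral water channel, went from 68.4 ± 9.93 to 15.4 ± 1.35 FPKM, and Scnn1a, a subunit of the sodium channel ENaC, from 31.1 ± 1.28 to 13.1 ± 1.04. Among intercalated cell genes 11 of 15 fell, 5 by at least 1. Slc4a1, the anion exchanger AE1 that red cells also carry, was at 10.2, 19.5, 12.8 and 15.8 FPKM in sham and at 0.39, 0.60, 0.56 and 0.57 in UUO7, while the globin genes overlapped between the groups. Slc26a4, pendrin, fell by 1.38 on the log2 scale.

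Podocyte genes did not move as 1 group: 10 of 18 rose, 3 fell and 5 did not pass on both scalings. Nphs1, nephrin of the slit diaphragm, was at 5.12 ± 0.233 FPKM in sham and 8.28 ± 0.791 in UUO7 and was called on the deposited values alone. Wt1, a transcription factor of podocytes, rose by 0.98 on the log2 scale. The largest rise was in Tcf21, which interstitial fibroblasts also express, at 7.37 to 12.3 FPKM in sham and 57.5 to 71.5 in UUO7. Col4a3 and Col4a4, chains of the mature glomerular basement membrane that tubules also make, fell from 30.4 ± 3.73 to 8.09 ± 2.17 and from 29.9 ± 2.49 to 13.0 ± 1.80 FPKM.

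Among endothelial genes 14 of 20 rose and 1 fell. Pecam1, an adhesion molecule of all endothelium, was at 11.4, 18.9, 10.4 and 10.8 FPKM in sham and at 38.1, 40.8, 40.2 and 42.3 in UUO7. Icam1, an adhesion molecule that leukocytes bind and that tubules can also express, went from 8.46 ± 1.19 to 64.9 ± 4.13 FPKM. The member that fell was Vegfa, the endothelial growth factor made chiefly by podocytes and tubules, from 148 ± 6.43 to 93.3 ± 11.9 FPKM. Among pericyte and myofibroblast genes 17 of 19 rose and 0 fell. Acta2, smooth muscle actin and the usual myofibroblast marker, was at 15.6, 27.0, 13.3 and 11.04 FPKM in sham and at 103, 108, 88.0 and 79.2 in UUO7. Tagln, its companion transgelin, rose by 3.15 on the log2 scale, and Pdgfrb, the growth factor receptor of pericytes, went from 3.95 ± 0.977 to 34.5 ± 0.496 FPKM.

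In the matrix list 40 of 42 genes rose, 35 of them by at least 1, and 1 fell. Its summed level was 444.1 to 708.3 FPKM in sham and 6130 to 7016 in UUO7, and Mgp alone was at 3442 ± 357 in UUO7. Col1a1, a chain of fibrillar collagen (chromosome 11, 94936224 to 94953042, plus strand), was at 1.80, 3.71, 1.56 and 1.77 FPKM in sham and at 76.8, 91.0, 76.8 and 92.5 in UUO7. Its partner chain Col1a2 rose by 4.54 on the log2 scale, and Fn1, fibronectin, by 4.33. Col4a1, a basement membrane chain found around all tubules, went from 31.6 ± 2.10 to 203 ± 13.6 FPKM, in contrast to Col4a3 and Col4a4. The single member that fell was Fmod, fibromodulin, from 3.21 ± 0.288 to 2.07 ± 0.280 FPKM.

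Proteases of the matrix and their inhibitors rose together, 21 of 26 rising and 3 falling, with 12 of the 26 under 1 FPKM in sham. Mmp2, a gelatinase of fibroblasts, went from 1.33 ± 0.360 to 36.2 ± 6.36 FPKM. The members that fell were Timp3, a metalloproteinase inhibitor bound to matrix, from 333 ± 25.1 to 155 ± 9.51 FPKM, and the brush border meprins Mep1a and Mep1b, by 1.83 and 2.79 on the log2 scale. TGF-beta drives myofibroblasts. Of 38 genes of the TGF-beta and BMP pathways 29 rose, 15 by at least 1, and 2 fell. The 29 include inhibitors such as Smad6 and Ski. Tgfb1, the main TGF-beta ligand, was at 3.19, 5.06, 2.67 and 3.38 FPKM in sham and at 30.8, 32.4, 29.9 and 33.6 in UUO7. Bmp1, the protease that matures collagen, went from 2.29 ± 0.389 to 30.4 ± 0.986 FPKM. Bmp7, a ligand that opposes TGF-beta in the kidney, was at 12.9 to 13.3 FPKM in sham and at 6.67 to 7.50 in UUO7. Among ligands and receptors of EGFR and MET, 3 of 14 rose and 5 fell, with Egf lower as above and Areg, amphiregulin, at 0, 0.09, 0 and 0.06 FPKM in sham and 5.73, 4.54, 3.76 and 2.67 in UUO7.

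Macrophage genes rose. Of the macrophage and dendritic cell genes 27 of 28 rose, 25 by at least 1, with 14 of the 28 under 1 FPKM in sham, and their summed level went from 101.7 to 171.8 FPKM in sham to 1938 to 2231 in UUO7. C1qa, a complement subunit made by tissue macrophages, was at 9.36, 17.9, 7.09 and 8.72 FPKM in sham and at 294, 317, 330 and 334 in UUO7. Cd68, a lysosomal protein of macrophages, went from 1.71 ± 0.373 to 37.1 ± 2.98 FPKM, and Adgre1, the F4/80 antigen, from 0.665 ± 0.184 to 15.8 ± 2.78. The exception was Folr2, a folate receptor of resident macrophages, at 4.45 ± 0.966 and 4.59 ± 0.976 FPKM. Of 25 T and NK cell genes 14 had a row, 12 of them with a sham mean under 1 FPKM, so that a count of rises among them carries little. Cd3e, a chain of the T cell receptor complex, was at 0.08 to 0.18 FPKM in sham and at 1.32 to 1.90 in UUO7. Ccl5, a chemokine of T cells, went from 1.76 ± 0.193 to 43.5 ± 6.64 FPKM.

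In the B cell list 6 of 13 genes had no row and 3 of the 7 measured rose, a share near that over all genes. Among the 3 was Igkc, the kappa light chain, at 13.0, 13.2, 16.0 and 22.3 FPKM in sham and 32.5, 70.3, 48.7 and 42.7 in UUO7. Of 12 neutrophil genes 4 had a row, 3 of them with a sham mean under 1 FPKM. S100a9, a calcium-binding protein of neutrophils, went from 0.708 ± 0.247 to 5.64 ± 1.15 FPKM.

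Antigen presentation, chemokines and cytokines rose with the leukocyte genes. All 20 MHC genes rose by at least 1, although the H2 genes resemble each other and their reads may be shared. Cd74, the invariant chain of class II, was at 75.5, 117, 75.9 and 76.7 FPKM in sham and at 1415, 1520, 1827 and 1728 in UUO7. Of the chemokines and receptors 30 of 33 rose, with 21 of the 33 under 1 FPKM in sham. Ccl2, which draws monocytes, went from 0.745 ± 0.174 to 39.7 ± 10.2 FPKM and Cxcl1, which draws neutrophils, from 0.645 ± 0.224 to 49.2 ± 2.00. Ccl28, a mucosal chemokine, was the only member of that list that fell, from 7.28 ± 3.57 to 2.19 ± 0.247 FPKM. Of the cytokine signalling genes 27 of 29 rose and 1 fell, with 10 of the 29 under 1 FPKM in sham. Socs3, the feedback inhibitor of the IL-6 family, was at 0.56, 2.09, 0.72 and 0.71 FPKM in sham and at 44.5, 51.7, 38.3 and 45.9 in UUO7, and Osmr, the oncostatin M receptor, rose by 3.17 on the log2 scale. Lifr, a receptor of the same family, fell from 19.2 ± 1.21 to 11.2 ± 1.62 FPKM.

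Interferon-response genes rose in 25 of 26 cases. Isg15, a ubiquitin-like protein, was at 4.27, 7.37, 4.82 and 6.40 FPKM in sham and at 44.6, 42.8, 42.4 and 36.1 in UUO7. Of the complement genes 16 of 22 rose and 2 fell. The 2 that fell were C8a, a part of the membrane attack complex, from 11.4 ± 1.47 to 3.79 ± 0.498 FPKM, and Cd55, which restrains complement on cells, from 8.49 ± 0.702 to 4.84 ± 0.882.

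**Figure D4:**
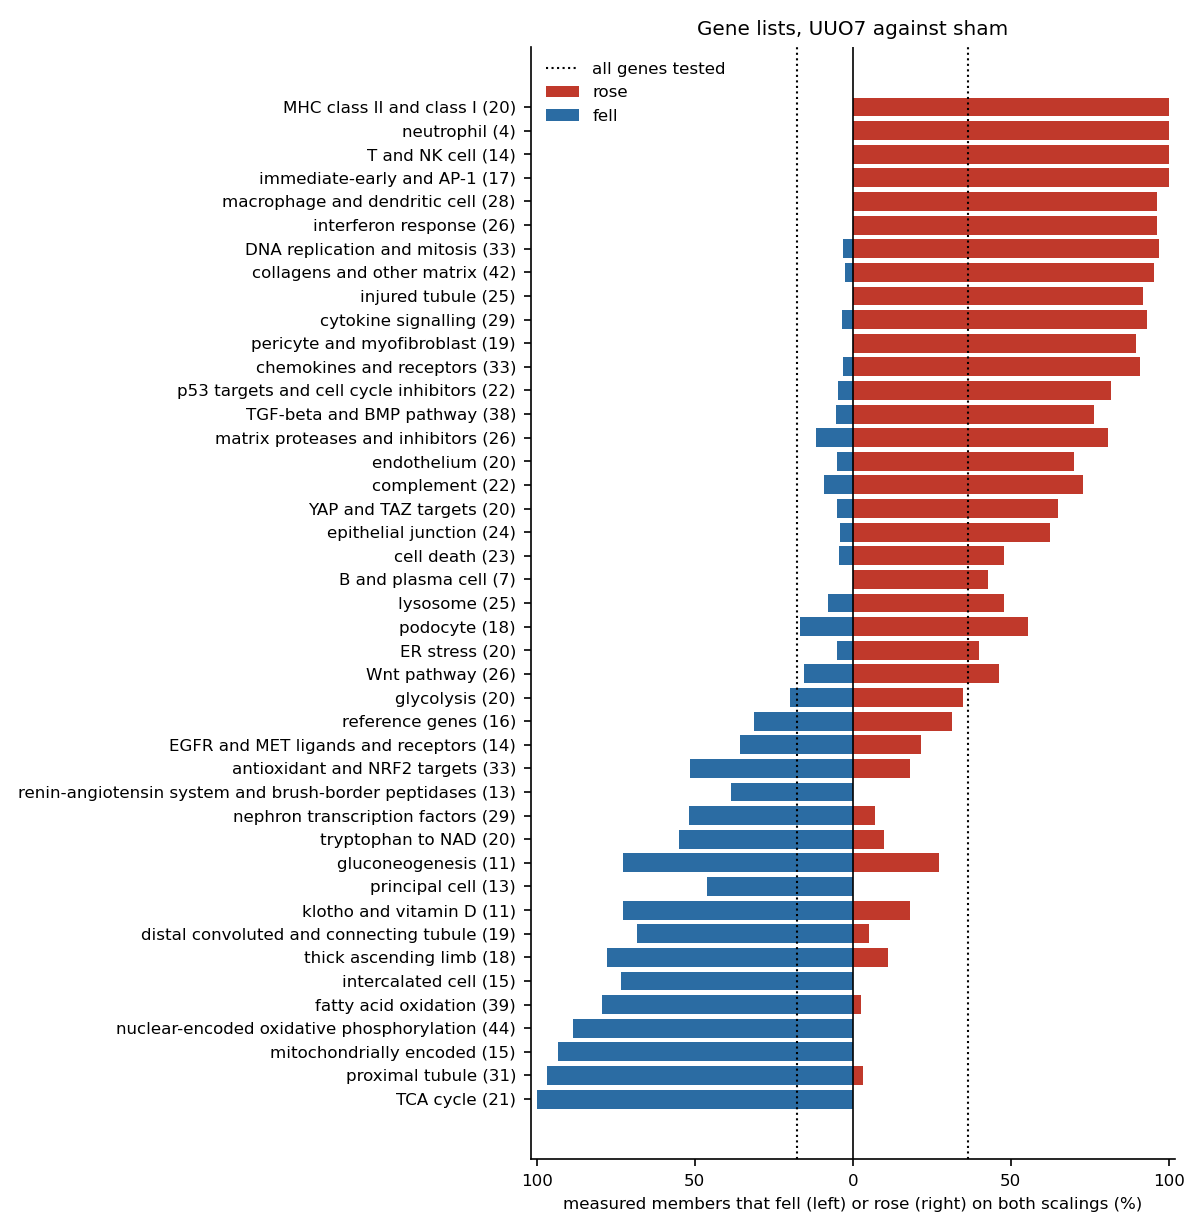
Each row is 1 of 43 gene lists with its number of measured genes in brackets; the red bar gives the percentage of members that rose on both scalings and the blue bar, drawn to the left, the percentage that fell. Dotted lines mark the shares over all genes tested (36.5% higher and 17.8% lower). All 20 MHC genes rose and all 21 members of the TCA cycle list fell. In the T and NK cell and neutrophil lists 12 of 14 and 3 of 4 members were under 1 FPKM in sham, and in the chemokine and macrophage lists 21 of 33 and 14 of 28. Those bars, and to a lesser extent others, are in part set by the lower limit of the table.

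Genes of DNA replication and mitosis rose in 32 of 33 cases, 22 by at least 1, and 12 of the 33 were under 1 FPKM in sham. Top2a, the topoisomerase that untangles replicated chromosomes (chromosome 11, 98992943 to 99024189, minus strand), was at 0.90, 1.55, 1.48 and 1.30 FPKM in sham and at 19.7, 23.1, 27.2 and 22.0 in UUO7. Mki67, the Ki-67 protein of cycling cells, was at 0.34 to 0.40 FPKM in sham and at 4.01 to 5.88 in UUO7. Pcna, the sliding clamp of DNA polymerase, rose by 1.35 on the log2 scale. Ccnd1, cyclin D1 of the first gap phase, was lower with all libraries, at 44.99 ± 3.92 and 36.5 ± 0.967 FPKM. Its log2 fold change was -0.253 without sham 1 (limma adjusted p 0.0683) and -0.266 without sham 2 (limma adjusted p 0.0562). Which cells were dividing cannot be read from bulk tissue.

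CCAAT boxes stood in 20 of the 26 matched promoters of that list (76.9%), against 36.2% of the 250-base windows of 9717 tested genes that matched a RefSeq start. The share was 33.7% of the 1296 windows of genes that rose by at least 1 and 39.3% of the 522 of genes that fell by at least 1. The window of Mki67 (chr7:135716380-135716629, minus strand) held 3, that of Top2a (chr11:99024190-99024439, minus strand) 6, and that of Ccnb2, cyclin B2 of mitosis (chr9:70421555-70421804, minus strand), 3. These 3 genes were taken in list order among members whose window held a CCAAT box and no base of the gene itself. Capitals mark CCAAT or, on the other strand, its complement.
Mki67: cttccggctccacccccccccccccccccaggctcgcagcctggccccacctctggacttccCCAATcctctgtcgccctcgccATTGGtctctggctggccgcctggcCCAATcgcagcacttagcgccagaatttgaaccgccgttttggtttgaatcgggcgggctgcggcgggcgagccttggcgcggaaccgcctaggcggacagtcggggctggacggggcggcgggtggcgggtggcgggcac
Top2a: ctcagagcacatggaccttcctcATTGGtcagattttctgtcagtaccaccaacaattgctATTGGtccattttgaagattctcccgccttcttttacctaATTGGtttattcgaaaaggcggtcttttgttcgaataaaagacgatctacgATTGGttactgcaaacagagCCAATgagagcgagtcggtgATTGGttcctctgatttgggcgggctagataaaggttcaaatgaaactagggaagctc
Ccnb2: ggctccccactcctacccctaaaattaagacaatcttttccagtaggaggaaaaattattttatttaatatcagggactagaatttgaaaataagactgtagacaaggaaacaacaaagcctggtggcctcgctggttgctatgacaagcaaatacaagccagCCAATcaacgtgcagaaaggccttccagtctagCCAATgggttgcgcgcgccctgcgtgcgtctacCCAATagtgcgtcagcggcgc
Ccnb2 was at 0.70, 1.29, 1.16 and 1.23 FPKM in sham and at 9.50, 11.6, 12.4 and 12.3 in UUO7. CCAAT boxes are read by the factor NF-Y. Of the other motifs given here, the AP-1 motif stood in 4.15% of all, 6.25% of the rising and 5.36% of the falling windows, and GGAATG in 10.5%, 13.5% and 11.7%. The TATA box stood in 6.48%, 10.6% and 11.5%, the CRE TGACGTCA in 2.75%, 2.47% and 1.53%, the E2F motif GGCGGGAA in 3.72%, 2.93% and 1.92%, and the HNF4 letters CAAAGTCCA in 0.381%, 0.772% and 1.15%. Both strands were searched for every motif, and matches of GGAATG overlapped an E2F match in 10 windows.

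Inhibitors of the cell cycle rose with the cycling genes. Of 22 p53 targets and inhibitors 18 rose and 1 fell, or 15 rose without sham 2. Cdkn1a, the inhibitor p21, was at 2.44, 6.53, 2.72 and 3.52 FPKM in sham and at 41.5, 36.6, 42.8 and 45.4 in UUO7. Trp53 itself went from 17.5 ± 0.939 to 41.8 ± 4.49 FPKM. Of 23 cell death genes 11 rose, 8 by at least 1, and 1 fell, against 36.5% and 17.8% over all genes. Gsdmd, the pore-forming gasdermin of pyroptosis, went from 1.93 ± 0.402 to 22.8 ± 1.22 FPKM, and Casp4, an inflammatory caspase, rose by 3.18 on the log2 scale. Aifm1, a mitochondrial flavoprotein, was the member that fell, from 101 ± 5.00 to 48.4 ± 3.81 FPKM.

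All 17 immediate-early and AP-1 genes rose, 16 of them by at least 1, and 16 rose without sham 2. Atf3, a stress-induced member, was at 0.76, 1.52, 0.69 and 0.52 FPKM in sham and at 13.9, 17.4, 20.3 and 11.6 in UUO7. Myc, which drives growth, went from 2.30 ± 0.857 to 29.2 ± 3.43 FPKM and Fosl1, a Fos relative, from 0.285 ± 0.123 to 4.38 ± 0.534. Fos had the least certain change of those named, with a log2 fold change of 1.68 (SE 0.56, limma adjusted p 0.0102).

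Genes of mitochondrial metabolism fell in each of 4 lists. Of the fatty acid oxidation genes 31 of 39 fell, 18 by at least 1, and 1 rose, and the summed level went from 7122 to 7387 FPKM in sham to 2640 to 2985 in UUO7. Ehhadh, the bifunctional enzyme of peroxisomes, was at 385, 313, 346 and 316 FPKM in sham and at 43.9, 61.5, 26.4 and 39.1 in UUO7. Acadm, the medium-chain dehydrogenase, went from 792 ± 84.5 to 209 ± 19.8 FPKM, and Cpt1a, which admits fatty acids to mitochondria, from 111 ± 5.47 to 49.6 ± 3.34. Ppara, the nuclear receptor of this pathway, was at 6.53 to 12.4 FPKM in sham and at 1.68 to 2.65 in UUO7, and Ppargc1a, its co-activator, fell by 0.76 on the log2 scale. The member that rose was Pdk4, a kinase that turns off pyruvate entry, from 7.17 ± 2.41 to 19.3 ± 2.19 FPKM.

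Subunits of the respiratory chain fell too. Of 44 nuclear-encoded subunits 39 fell, 5 of them by at least 1, and 0 rose. Atp5b, the catalytic subunit of ATP synthase, was at 2541, 2424, 2443 and 2509 FPKM in sham and at 1163, 1160, 1113 and 1072 in UUO7. Mitochondrially encoded genes took 14.4% ± 0.292 of the summed FPKM in sham and 6.00% ± 0.407 in UUO7, and 14 of 15 fell. mt-Co1, a core subunit of complex IV, was at 24010, 22770, 23540 and 23620 FPKM in sham and at 9408, 10860, 8754 and 8866 in UUO7. mt-Co2, the next subunit of that complex, was the exception, at 6016 ± 588 and 5806 ± 1537 FPKM, lower on the rescaled values alone. Nuclear copies such as Gm28661 may share reads with mitochondrial genes, and their values are uncertain. All 21 genes of the TCA cycle list fell, with a rescaled median of -1.42. The list also holds Pdha1, Pdhb and Dlat of pyruvate dehydrogenase, the cytosolic enzymes Aco1, Idh1 and Mdh1, and Pcx. Pcx, pyruvate carboxylase, went from 194 ± 13.6 to 29.9 ± 6.86 FPKM, and Cs, citrate synthase, fell by only 0.27 on the log2 scale.

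Of 20 glycolysis genes 7 rose, 4 fell and 9 did not pass on both scalings, shares near those over all genes. Of the 7 that rose 4 were under 1 FPKM in sham, Hk2 and Slc16a3 among them. Hk2, the inducible hexokinase, was at 0.02, 0.47, 0.05 and 0.10 FPKM in sham and at 4.30, 5.68, 4.64 and 4.33 in UUO7, and Slc16a3, the lactate exporter MCT4, went from 0.420 ± 0.369 to 11.6 ± 2.93. Ldha, lactate dehydrogenase, was at 484 ± 6.22 and 495 ± 27.9 FPKM, and was lower on the rescaled values alone. Gluconeogenesis, a task of the proximal tubule, fell in 8 of 11 genes and rose in 3. Pck1, the cytosolic carboxykinase, was at 511, 812, 600 and 584 FPKM in sham and at 116, 156, 118 and 101 in UUO7. Its mitochondrial counterpart Pck2 was among the 3 that rose, from 9.04 ± 0.982 to 30.9 ± 1.79 FPKM.

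Of 20 genes of tryptophan breakdown and NAD metabolism 11 fell and 2 rose. Acmsd, which diverts the pathway from NAD, went from 47.0 ± 5.75 to 7.81 ± 0.987 FPKM and Kmo, which feeds it, from 42.4 ± 4.34 to 8.55 ± 1.72. The 2 that rose consume NAD or nicotinamide: Nnmt, at 0.22 to 1.64 FPKM in sham and 10.2 to 11.8 in UUO7, and Cd38, from 1.202 ± 0.144 to 6.30 ± 0.214. In the klotho and vitamin D list 8 of 11 fell and 2 rose. The 8 include Dbp, a circadian transcription factor that is not part of that pathway. Kl, the co-receptor klotho (chromosome 5, 150952607 to 150993817, plus strand), was at 131, 111, 137 and 118 FPKM in sham and at 24.6, 29.97, 22.5 and 24.3 in UUO7. Cyp24a1, which degrades active vitamin D, fell by 1.23 on the log2 scale, and Cyp27b1, which makes it, rose from 0.890 ± 0.339 to 11.8 ± 3.24 FPKM. Gc, the vitamin D carrier protein known from liver, was at 7.23 to 10.4 FPKM in sham and at 118 to 156 in UUO7.

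In a list of antioxidant genes and targets of the stress factor NRF2, 17 of 33 fell and 6 rose. The list also holds Cybb and Nox4, oxidases that make reactive oxygen, and Keap1, which restrains NRF2. Cat, catalase, was at 376, 327, 373 and 349 FPKM in sham and at 120, 117, 96.0 and 101 in UUO7. Cybb, the phagocyte oxidase subunit NOX2, went from 0.730 ± 0.173 to 7.67 ± 1.26 FPKM. Of the genes of the renin-angiotensin system and of brush-border peptidases 5 of 13 fell, 1 by at least 1, and 0 rose. Ace, the converting enzyme of the brush border and vessels, went from 70.6 ± 10.7 to 25.0 ± 1.16 FPKM, while Ren1, renin, was at 36.9, 21.7, 39.4 and 27.7 FPKM in sham and at 46.8, 34.5, 70.0 and 57.7 in UUO7, with overlap. The log2 fold change of Ren1 was 0.548 without sham 2 (limma adjusted p 0.079), 0.554 without UUO7 3 and 0.645 without UUO7 4, none of which passed.

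Of 20 ER stress genes 8 rose, a share near the background, and 1 fell. Asns, asparagine synthetase, rose by 2.04 on the log2 scale, and Herpud1, an ER degradation factor, fell from 136 ± 9.47 to 79.3 ± 8.19 FPKM. Of 25 lysosomal genes 12 rose and 2 fell, against 36.5% and 17.8% over all genes. The 3 with the largest rescaled rise were Ctss, cathepsin S, Lyz2, lysozyme, and Laptm5, a lysosomal membrane protein, which are genes of macrophages. Lyz2 was at 11.7, 25.0, 11.4 and 15.9 FPKM in sham and at 305, 416, 333 and 414 in UUO7, while Lamp1, a membrane protein of all lysosomes, was at 488 ± 5.80 and 485 ± 16.5, lower on the rescaled values alone. Of 24 genes in the epithelial junction list 15 rose and 1 fell. The 15 include Snai1, Snai2, Twist1, Zeb1 and Zeb2, transcription factors known to repress junction genes. Cldn4, a claudin of the collecting duct, was at 9.74, 34.5, 10.9 and 12.8 FPKM in sham and at 169, 169, 194 and 191 in UUO7, and Cldn2, the cation-pore claudin of the proximal tubule, fell from 144 ± 9.72 to 92.8 ± 7.50.

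In a list of YAP and TAZ, co-activators that respond to stretch, with their partners and targets, 13 of 20 genes rose and 1 fell. The 13 include Yap1 itself and the DNA-binding partners Tead2 and Tead3. Ankrd1 was at 1.06, 5.17, 0.94 and 1.47 FPKM in sham and at 21.2, 25.0, 23.7 and 21.6 in UUO7, and Ctgf, a matrix-associated growth factor, went from 16.1 ± 3.67 to 83.4 ± 19.7. Of the Wnt pathway 12 of 26 rose and 4 fell, against 36.5% and 17.8% over all genes. Without sham 2, 14 rose and 3 fell. Wnt4, a ligand of developing and injured tubule, was at 0.30, 4.45, 0.34 and 0.56 FPKM in sham and at 12.0, 10.9, 12.2 and 14.96 in UUO7. Dkk3, a secreted modulator, went from 2.56 ± 0.249 to 21.9 ± 3.03 FPKM, and Wnt11 was lower, at 4.24 ± 1.41 and 1.97 ± 0.554, with overlapping libraries.

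Of 16 genes often used as references 5 rose, 5 fell and 6 did not pass on both scalings in 1 direction. Actb, beta actin, was at 245, 377, 194 and 248 FPKM in sham and at 1618, 1523, 1967 and 1218 in UUO7, and B2m, the light chain of MHC class I, went from 195 ± 25.3 to 842 ± 79.2. Sdha, a subunit of succinate dehydrogenase, fell from 305 ± 4.34 to 170 ± 11.6 FPKM. Gapdh was among 2589 genes whose 95% interval of the log2 difference lay within 0.58 of 0 on both scalings. It was at 1683, 1602, 1577 and 1635 FPKM in sham and at 2041, 1851, 2170 and 1795 in UUO7, with an interval of 0.055 to 0.486 on the deposited and -0.479 to 0.046 on the rescaled values. For 526 genes the direction turned with the scaling. Ubb, a ubiquitin precursor and the most abundant of them, was 0.21 higher on the deposited and 0.27 lower on the rescaled values, each with a limma adjusted p under 0.05.

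The same lists were read at 2 days of obstruction and after 1 week of reversal. These comparisons share the UUO7 libraries with the one above, so they are not independent of it. In UUO7 against UUO2, 30% of all genes rose and 14.7% fell on both scalings, and in R1W against UUO7, 5.91% rose and 6.73% fell. The R1W counts depend on single libraries: 874 genes rose and 995 fell, against 520 and 511 without UUO7 1, 496 and 522 without UUO7 3, and 509 and 594 without UUO7 4. The list counts for R1W below carry the same limit. The UUO2 libraries differed from sham in mitochondrial genes and their copies. mt-Co2 was at 27870 ± 1514 FPKM in UUO2, against 6016 ± 588 in sham, and Gm28661 at 1024 ± 1190 against 26060 ± 1494. The part of this difference in the other UUO2 results was not tested.

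Levels of replication genes overlapped between 2 and 7 days, while those of matrix and macrophage genes did not. Of the 33 replication genes 4 were higher at 7 days than at 2 and 1 lower. Their median log2 difference from the sham mean on the rescaled values was 1.03 to 1.65 over the UUO2 libraries, 1.25 to 1.38 over UUO7 and 0.73 to 0.91 over R1W, and 22 of 33 fell from UUO7 to R1W. The injured tubule genes had a median difference of 1.14 to 2.68 over UUO2, 2.09 to 2.56 over UUO7 and 1.51 to 2.14 over R1W, with 12 of 25 higher at 7 days than at 2 and 9 lower in R1W than in UUO7. For the matrix genes 41 of 42 were higher at 7 days than at 2. Their median difference from sham was 0.24 to 0.70 over UUO2, 2.00 to 2.26 over UUO7 and 1.91 to 1.99 over R1W, and 10 of 42 fell in R1W. Of 28 macrophage genes 25 were higher at 7 days than at 2, and in R1W 0 were lower than in UUO7 and 1 was higher. Mmp7 was at 2.02 ± 0.911 FPKM at 2 days and at 41.2 ± 12.1 in R1W, and Havcr1 at 461 ± 178 and 125 ± 27.2.

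Proximal and oxidative genes were lower at 7 days than at 2. Of the 31 proximal genes 24 were lower at 7 days than at 2 and 10 rose in R1W. Their median difference from sham was -1.14 to -0.44 over UUO2, -2.45 to -2.02 over UUO7 and -2.06 to -1.25 over R1W. For fatty acid oxidation 26 of 39 were lower at 7 days than at 2, and 8 rose in R1W. Of the distal convoluted and connecting tubule genes 10 of 19 rose in R1W: Calb1 went from 9.24 ± 1.35 to 60.7 ± 16.2 FPKM and Klk1 from 158 ± 20.8 to 1000 ± 355. Slc13a1, the sulfate transporter, was at 433 ± 128 FPKM at 2 days, 229 ± 21.9 at 7 days and 108 ± 6.23 in R1W.

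**Figure D5:**
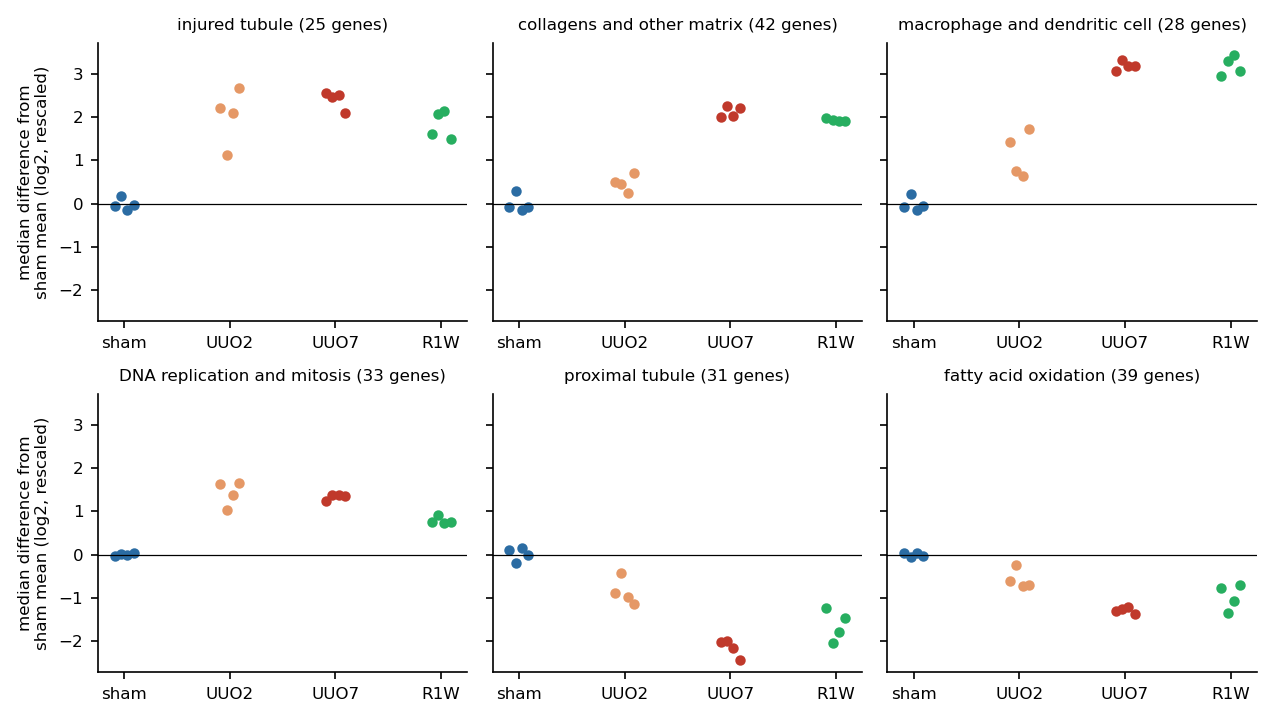
Each point is 1 library; the vertical axis is the median over a list's genes of the log2 difference from the sham mean on the rescaled values, and the horizontal axis the group, with 4 libraries each. Replication genes lie at 1.03 to 1.65 in UUO2 and 1.25 to 1.38 in UUO7, while matrix genes go from 0.24 to 0.70 in UUO2 to 2.00 to 2.26 in UUO7.

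Tissues next to the cortex gave values that depended on sham 2. Of 8 urothelium markers 1 rose with all libraries and 8 rose without sham 2. Upk3a, a uroplakin of the urothelial surface, was at 0.29, 10.2, 0.45 and 0.81 FPKM in sham and at 4.59, 2.47, 5.31 and 8.03 in UUO7, with a log2 fold change of 1.941 without sham 2 (limma adjusted p 0.00149). Of 7 inner medulla markers 2 rose and 2 fell with all libraries and 0 fell without sham 2. The part of urothelium, medulla or fat in the other results was not tested, beyond the counts without sham 2 given above. For the lists named above without such a count, the number that rose and the number that fell each moved by at most 1.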

How the data were processed

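Kidney RNA of 24 mice in 6 groups of 4 was sequenced from total RNA by polyA pulldown, per the labels, and the 8 libraries of sham surgery and of 7 days of obstruction are described here. The submitters' processing notes name FastQC, Bowtie2, RSEM, DESeq2 and mm10, with no versions or roles. The deposited values per gene and library are taken as FPKM from their sums and their relation to gene length. The authors deposited for each of their own comparisons a log2 fold change and an adjusted p-value, used here only for the counts credited to that table. Genes of low level were absent, the smallest mean over the 24 libraries being 1.

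Values were analysed as log2(FPKM + 1) with limma 3.58.1 in R 4.3.3, with 1 mean for each of the 6 groups over all 24 libraries, a trended prior variance and Benjamini-Hochberg adjustment over 14785 genes. The fit was made on the deposited values and after median-ratio rescaling, whose factors were 0.784 to 0.864 in sham and 1.116 to 1.176 in UUO7. Depth was not given and was inferred from the steps between low values. On simulated data for this comparison with 14785 genes, 88 of 100 genes changed by 1 on the log2 scale were recovered. Of 100 changed by 2, 95 were recovered, and 8 unchanged genes were called. That simulation had normal errors around the sham means, no change in the other genes and 1 fit without rescaling. It therefore does not test the call on both scalings or a shift of the median gene. Replicates are separate animals. Samples with the same number in both groups did not deviate together (r -0.245 to -0.042), so they were not paired.

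The genes and lists were chosen with earlier results of these data known. Named genes are the 14 greatest rises and 14 greatest falls called on both scalings, with no overlap and a higher group mean of 20 FPKM or more, without mitochondrial, ribosomal, antigen receptor and clone-named genes. Others are the first members of 43 gene lists, the list members of greatest change whose group mean reached 5 FPKM, members that went against their list, and the most abundant, steady or scaling-dependent genes. Some genes outside this rule were named after their values were seen, and a few within it, with 2 of the motifs searched, are not reported here. Promoter windows came from RefSeq (GRCm38.p6), matched to 9717 genes on the same strand within 1000 bases of the deposited start, and to 16 of the 28 genes of greatest change. This matching rule and the windows printed were settled after values were seen. Alternatives were other pseudocounts, filters, thresholds and scalings, a replicate block and leaving out each library. Tables were handled in Python 3.11.15 with pandas 2.3.3 and numpy 2.4.6.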

Additional observations from a re-analysis of the deposited data

Results flagged for a closer look

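A library is listed here where it lay far from the other 3 of its group, by Dixon's ratio of gap to range. Of 354 such groups examined, 32 held one, and the nominal rate for independent groups of normal values is about 1 in 20. These groups share libraries and many of the genes were picked by their values, so that rate does not hold strictly. In 24 of the 32 the library was sham 2.

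For tissue markers, sham 2 had a summed level of 110.9 FPKM for urothelium, 383.9 for adipose tissue and 649 for inner medulla. Adipoq was at 12.54 FPKM there and Upk3a at 10.24. Among genes of collecting duct, injured tubule and signalling, sham 2 was high for Cldn4 (34.47 FPKM), Krt18 (36.49), Spp1 (718.5), Wnt4 (4.45), Ankrd1 (5.17), Slc16a3 (0.97) and Pdk4 (10.76). Among genes of matrix, vessels and inflammation it was high for Col1a1 (3.71 FPKM), Col1a2 (9.06), Pecam1 (18.93), Socs3 (2.09), Snai2 (0.76), C3 (7.48), Cd74 (117) and Adgre1 (0.94). It was low for Ace (54.57 FPKM), Mep1b (87.76), Slc7a13 (296) and Cd55 (7.45).

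Of the other libraries, sham 3 was high for Lamp1 at 497.1 FPKM and sham 4 for Cd3e at 0.18. UUO7 1 was high for Pvalb at 0.04 FPKM, with the other 3 listed at 0. UUO7 2 stood apart for Cd3e at 1.90 FPKM and for Fos at 11.18. UUO7 3 stood apart for Adipoq at 0.79 FPKM and Pcna at 69.00, and UUO7 4 for C8a at 3.04.

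Igkc was lower than in all sham libraries in every UUO2 library and higher in every UUO7 library, on both scalings. Its mean was 7.47 FPKM in UUO2, 16.1 in sham and 48.6 in UUO7. UUO2 against sham was not tested, nor was the difference between the directions.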

How the results depend on the processing

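The total of 11512 genes called in UUO7 against sham became 6220 when only genes of mean 10 FPKM or more were kept, 1873 at mean 50 or more and 4076 with a change of at least 1 on the log2 scale; the first 2 test fewer genes. Genes that rose (5393) numbered 8880 on the deposited values alone, 2511 and 690 under the filters at 10 and 50, and 1983 with a change of at least 1. Genes that fell (2632) numbered 5396 on the rescaled values alone, 1737, 713 and 846 under the same settings. Against UUO2, genes that rose (4440) numbered 7686 on the deposited values alone, then 1843, 388 and 1363, and genes that fell (2169) numbered 4722 on the rescaled values alone, then 1417, 579 and 334. From UUO7 to R1W, genes that rose (874) numbered 308 under the filter at 50, 231 at an adjusted p under 0.01 and 134 with a change of at least 1, and those that fell (995) numbered 301, 258 and 47. Leaving out 1 UUO7 library gave 496 to 692 that rose and 511 to 870 that fell in R1W, the counts without UUO7 1, UUO7 3 or UUO7 4 being 520, 496 and 509 for rises and 511, 522 and 594 for falls. Leaving out 1 library of UUO7 or sham gave 11041 to 11451 called genes in UUO7 against sham.

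The replicate number as a block gave 11422 called genes, 5369 that rose and 2609 that fell; same-numbered samples are not known to be paired, and 0 of 4 pairs correlated best with their own number.

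Of 2934 values of 171 named genes, 2890 kept their direction and their side of the threshold. The direction turned with median-ratio and upper-quartile scaling for Folr2 (-0.357 and -0.292, from 0.041), Gapdh (-0.217 and -0.137), Ldha (-0.456 and -0.377), Pax2 (-0.188 and -0.115) and Ubb (-0.272 and -0.192). Without 1 library, ranges that crossed 0 were -1.071 to 0.182 for Adipoq (the high end without sham 2), -0.087 to 0.120 for Folr2, -0.034 to 0.001 for Lamp1 and -0.232 to 0.088 for mt-Co2. Gapdh did not pass on the deposited values without UUO7 1 (0.251), UUO7 3 (0.221) or sham 3 (0.256), and Upk3a passed without UUO7 2 (1.459). Fos did not pass at a pseudocount of 10 (0.654, limma adjusted p 0.0521). Of 1456 counts over gene lists, 44 moved by more than 1.5 times. The cause of these shifts was not tested, beyond the smaller number of genes or libraries. Low genes are limited by depth, and no counting error was computed for an FPKM.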

Other observations

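Of 13071 protein-coding genes 4943 rose and 2326 fell, near the shares over all genes of 36.5% and 17.8%. Of 351 long intergenic RNAs 113 rose and 81 fell, and of 314 antisense RNAs 97 rose and 72 fell, whose reads cannot be told apart from those of the gene on the opposite strand, since strand handling is not given in the sources used here. Of 54 small nucleolar RNAs 6 rose and 0 fell by limma, and of 62 microRNA loci 1 rose and 3 fell, although a polyA library measures neither class well.

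Genes varied little within a group. Among genes whose group mean was 20 FPKM or more, the median log2 range between the highest and the lowest library was 0.251 in UUO7 (5297 genes) and 0.191 in sham (4235 genes). A range of at least 2 was found for 16 genes in UUO7 and for 52 in sham.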
